A study of Zea mays with 2 samples.

Results

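Antenna proteins of photosystem II are the Lhcb type of chlorophyll a/b binding proteins, and 5 gene rows annotated as chlorophyll a/b binding proteins were followed here in maize leaves with and without a seaweed extract. The 5 rows were taken by identifier from 39634 gene rows per library, with no numerical cutoff, and they were picked with their levels in these libraries known. They are Lhcb4 (GRMZM2G033885), CAB1 (AC207722.2_FG009), the neighbouring chromosome 1 copies GRMZM2G414192 and GRMZM2G018627, and GRMZM2G120619. Because the levels chose the rows, the differences between the libraries are given as a description and carry no test. The control library was made from untreated maize (Zea mays, strain Sugar 75) and the extract library from plants given the seaweed preparation, with leaves taken at stage V5 in both. Drought stress is named by the title of the series, and the sources used here do not say whether both groups were under drought. Each group had 1 library, from a pool of 3 samples run with 2 technical replicates, and the label of the extract library calls it only the sample while the text of the series says that 1 library is treated. With 1 pool per group there is no replicate check, so that no spread between plants or pools can be given.

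In leaves, antenna proteins hold chlorophyll and carotenoids in the thylakoid membrane and pass the energy of absorbed light to the reaction centres. Around photosystem II the major antenna, LHCII, is built as trimers of Lhcb1, Lhcb2 and Lhcb3 proteins. The minor antenna proteins CP29 (Lhcb4), CP26 (Lhcb5) and CP24 (Lhcb6) are monomers that link the trimers to the core. The proteins are encoded in the nucleus by families of similar genes, and their mRNAs are among the most abundant of green leaves.

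The annotation names the type of antenna protein for only some of the rows. Lhcb4 carries the symbols Lhcb4*1 and psb29 and the description CP29.1, and CAB1 carries its own symbol. In the RefSeq gene table GRMZM2G120619 has the synonyms cab48 and LHCP, the latter for light-harvesting chlorophyll protein, and its row has the same PANTHER family code (SF20) as CAB1. For the chromosome 1 copies the files give only "chlorophyll a/b binding protein" with the family code SF8, and no source used here says which antenna type they are. The component terms of all 5 rows name both photosystems, so the label Lhcb was not checked by them. The protein and promoter sequences of the 5 genes were not analysed here.

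The values are FPKM (fragments per kilobase, relative to the size of the library) as deposited, which can be compared between genes because they are per length. The deposited lower and upper bounds follow each value, and they cover the quantification of 1 library. Where a pair of values is joined by "and" with no library named, the control value stands in front. A log2 ratio is log2 of the extract value plus 1 over the control value plus 1 FPKM, which understates the change of low genes. Counts over all genes tested run over the 16272 that reached 1 FPKM in either library, and their median was 0.22 on this scale. At 8.65% and 9.75% of the value stood the median distances to the upper bound in the control library and the extract library for genes at 10 FPKM or more. Leaf photosynthesis markers were present in both libraries. The 3 bundle sheath markers matched by name (me3, RCA1 and ssu1) summed to 1592 FPKM in the control library and 882 in the extract library. This sum is not complete. It leaves out the Rubisco small subunit gene GRMZM2G113033, which had 566 FPKM in the control library and 154 in the extract library. The 17 rows matched on names of mesophyll enzymes summed to 2768 and 2027 FPKM. They also took in carbonic anhydrase genes of mitochondrial and alpha types, so they are not mesophyll enzymes alone, and some were at 0 in both libraries. The part of these cell types in the antenna values was not tested. In bulk leaf RNA fewer cells of a type and less RNA per cell cannot be told apart.

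Lhcb4, the gene of the minor antenna protein CP29, lies on chromosome 7 (157276216 to 157277660 as the files give it, on a genome build that the sources used here do not name). Its level was 838 FPKM (802 to 874) in the control library and 150.4 FPKM (142 to 159) in the extract library. The control was therefore 5.57-fold higher, and the nearest bounds of the 2 intervals were still 5.06-fold apart. The log2 ratio of -2.47 lay lower than that of all but 0.326% of the genes tested. Lhcb4 ranked 26 of all rows in the control library and 166 in the extract library. The interval reached 4.27% and 5.46% above the value, wider than for CAB1, and the row cites 3 transcript models where CAB1 cites 1.

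CAB1, a gene of the major antenna, had nearly the same level in both libraries. It lies on chromosome 7 as well, at 147057062 to 147058228, and had 1530.4 FPKM (1514 to 1547) in the control library and 1419 FPKM (1402 to 1437) in the extract library. The log2 ratio was -0.11, and the control was 1.08-fold higher. The intervals did not overlap, but they are narrow at this level, reaching 1.06% and 1.24% above the values. CAB1 was the highest of the 30 chlorophyll a/b binding protein rows in both libraries and ranked 13 and 12 among all genes. While other rows had lower values, its share of the summed FPKM of the 30 rows was 18.8% in the control library and 35.5% in the extract library.

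GRMZM2G120619 (cab48), on chromosome 3 at 223353957 to 223355345, had a value near 0 in the extract library. It had 28.1 FPKM (26.1 to 30.2) in the control library and 0.0907 FPKM (0 to 0.219) in the extract library. The log2 ratio was -4.74, and the nearest bounds were 119-fold apart. The value in the extract library corresponds to an implied 1.99 fragments against 776 in the control, and the ratio of 310.1 has a counting interval of 85.7 to 2571. That interval covers counting error of the low value only.

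The chromosome 1 copies had opposite values. GRMZM2G414192 (247727654 to 247729365) had 59.9 FPKM (55.9 to 64.0) in the control library and 0.269 FPKM (0 to 0.557) in the extract library. GRMZM2G018627 (247758732 to 247760445) had 0.126 FPKM (0 to 0.318) in the control library and 32.4 FPKM (29.5 to 35.4) in the extract library. Each library thus held 1 copy above 20 FPKM and the other near 0, and the copy that was high differed between the libraries.

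The log2 ratios of the copies were -5.59 and 4.89, and the nearest bounds of their intervals were 100.3-fold and 92.7-fold apart. The low values rest on an implied 3.49 and 1.73 fragments. The ratios of 223 and 257 between the libraries have counting intervals of 81.9 to 925 and of 65.5 to 2716. These intervals are approximate, since the implied numbers are not whole. Of the pair's summed FPKM, GRMZM2G414192 made up 99.8% in the control library and 0.822% in the extract library.

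The sum of the neighbouring copies differed far less than either copy. It was 60.1 FPKM in the control (summed bounds 55.9 to 64.3) and 32.7 FPKM in the extract library (29.5 to 36.0). The control sum was 1.84-fold higher, a log2 ratio of -0.86, and the summed bounds did not overlap. Both rows cite the same UniProt entry (B6SZT9) and the same pair of reference genes, and their spans are 1711 and 1713 bases. How alike their sequences are, and whether reads of one were placed at the other, was not tested, so the values of the single copies are uncertain.

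**Figure D1:**
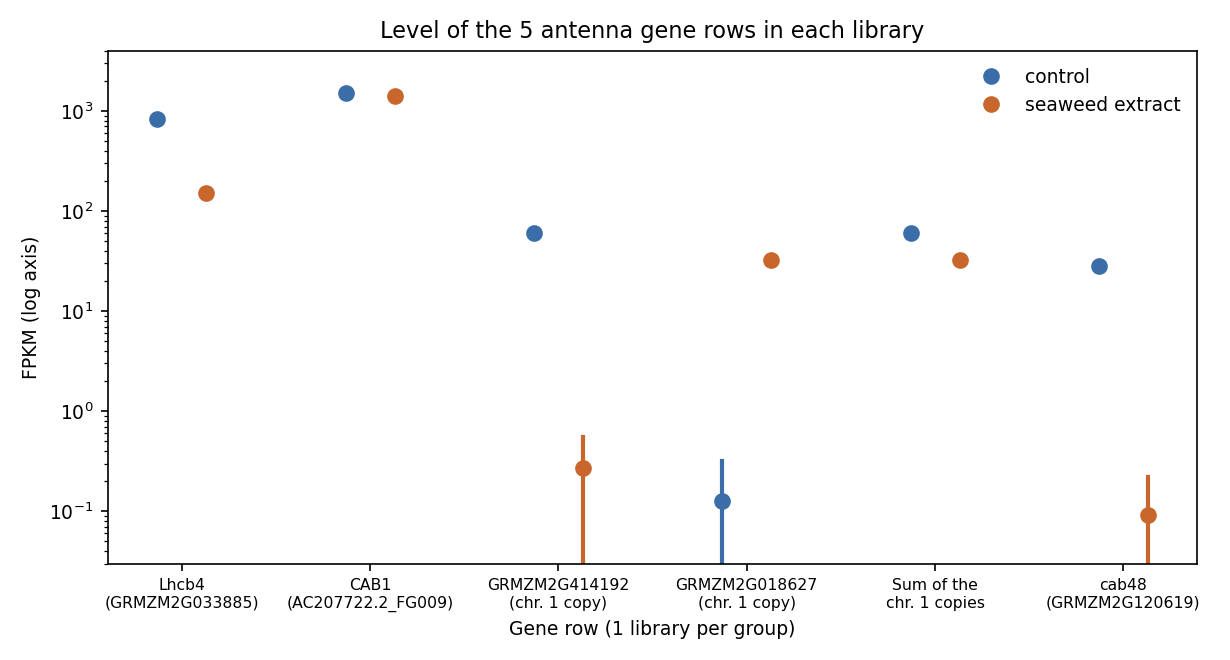
FPKM on a log axis of each of the 5 rows and of the sum of the chromosome 1 copies, in the control library (blue) and the extract library (orange). Points are the deposited values and lines the deposited intervals, with a lower bound of 0 running off the axis. CAB1 is at 1530.4 and 1419, while each chromosome 1 copy is near 0 in the library where the other is high.

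By the fold used here, a log2 ratio of at most -1, 3 of the 5 rows were lower in the extract library, and 2.52% of all genes tested were. With a log2 ratio of at least 1, 1 row was higher, as were 3.71% of all genes. After centring on the median gene the same 3 rows were lower and the same row higher, against 3.39% and 2.04% of all genes. The intervals of all 5 rows did not overlap between the libraries, 4 to the lower side, where 8.76% of all genes lay, and 1 to the higher side with 28.6% of all genes. The rows were chosen from this contrast, so nothing is read from these counts.

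The most abundant of the 5 rows were the same in both libraries. In the control the order was CAB1, Lhcb4, GRMZM2G414192, GRMZM2G120619 and GRMZM2G018627, and no neighbours in it had overlapping intervals. In the extract library it was CAB1, Lhcb4, GRMZM2G018627, GRMZM2G414192 and GRMZM2G120619, and the intervals of the last pair overlapped. The 5 rows summed to 2457 FPKM in the control library and 1602 in the extract library, a log2 ratio of -0.62. CAB1 made up 62.3% of that sum in the control library and 88.6% in the extract library, and Lhcb4 34.1% and 9.39%. Without CAB1 the other 4 rows summed to 926 and 183 FPKM (log2 ratio -2.33).

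**Figure D2:**
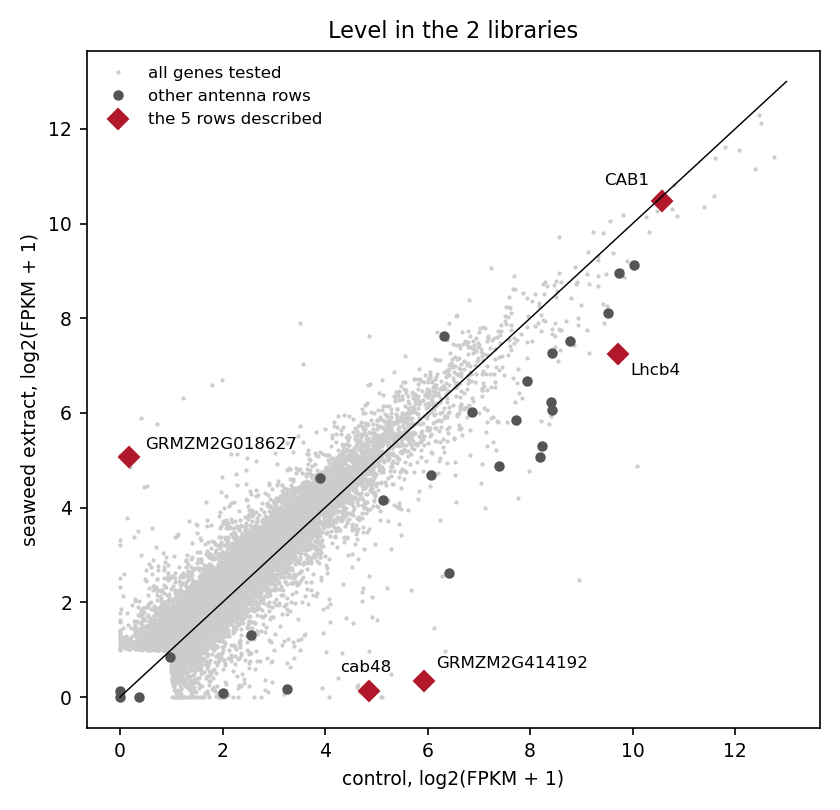
Level in the control (x axis) against the extract library (y axis), both as log2(FPKM + 1), for the 16272 genes tested (light grey), the 25 other antenna rows (dark grey) and the 5 rows described (red). The diagonal marks equal levels. CAB1 lies close to it, GRMZM2G414192 and cab48 lie at the bottom edge, and GRMZM2G018627 near the left edge.

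Differences from such levels to near 0 can be set against all genes. Of 1411 genes at 20 FPKM or more in the control, 12 (0.850%) were below 1 FPKM in the extract library, and GRMZM2G414192 and GRMZM2G120619 are among them. In the other direction, 7 of 1748 genes (0.400%) at 20 FPKM or more in the extract library were below 1 FPKM in the control, GRMZM2G018627 among them. These rows were chosen for such values, so their place in the counts is no finding.

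The genes around the antenna copies had smaller log2 ratios than the detected copies, but many of them were too low for a large ratio. The chromosome 1 copies start 31.1 kb apart with 2 other gene rows between them, GRMZM2G414206 at 0.0528 and 0 FPKM and GRMZM2G414215 at 0.0698 and 0 FPKM. Within 200 kb to either side there were 8 gene rows that are not antenna genes, the 2 included, with log2 ratios of -0.44 to 0.70. One of them, the ribosomal protein L10 gene GRMZM2G027451, had 42.3 FPKM in the control library and 56.2 in the extract library. The antenna copies lie far outside this range, at -5.59 and 4.89. Most of the 8 rows, however, were below 1 FPKM in both libraries. With 1 FPKM added to each value, the log2 ratio of such a row cannot reach 1 in size.

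GRMZM2G120619 has 3 further rows of the family code SF20 beside it on chromosome 3, starting 52.3, 98.9 and 176 kb away. GRMZM2G429955 had 8.62 FPKM (7.28 to 9.95) in the control library and 0.131 FPKM (0 to 0.316) in the extract library. GRMZM2G104549 had 3.04 FPKM (2.31 to 3.78) and 0.0546 FPKM (0 to 0.164). AC208915.3_FG010 was listed at 0 in both. The 3 detected copies, GRMZM2G120619 included, thus all had values near 0 in the extract library. How alike the SF20 rows are in sequence, and whether reads of one were placed at another, was not tested. The values of these single copies are therefore uncertain as well.

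Summed over these 4 rows, the chromosome 3 copies had 39.8 FPKM (summed bounds 35.7 to 43.9) in the control library and 0.276 FPKM (0 to 0.699) in the extract library. Their log2 ratio was -5.00, against -0.86 for the chromosome 1 pair, since no copy on chromosome 3 was high in the extract library. The 14 rows around them that are not antenna genes had log2 ratios of -1.08 to 0.61, and many of the 14 were below 1 FPKM in both libraries. The row with the lowest ratio, the unannotated GRMZM2G546097, had an upper bound of 2.40 FPKM and a lower bound of 0 in the control. Its listed value was 0 with the extract.

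**Figure D3:**
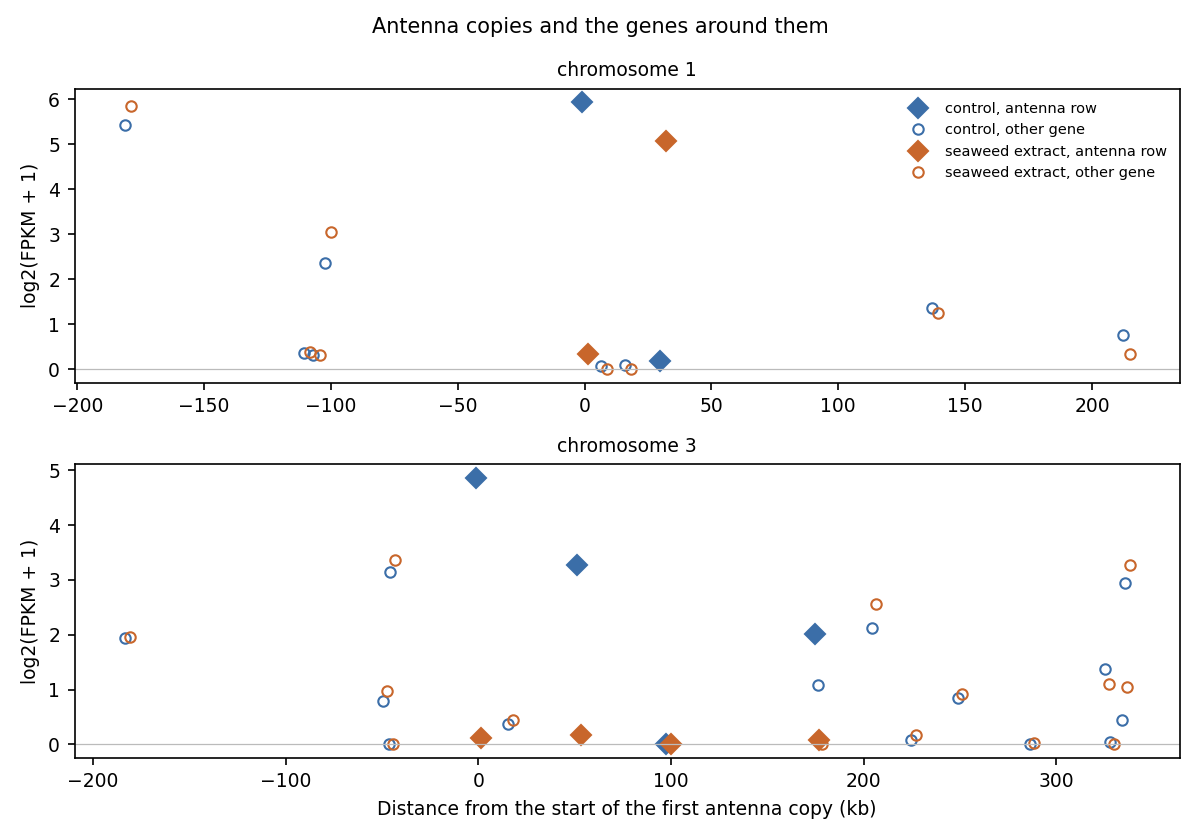
Level as log2(FPKM + 1) against the distance in kb from the start of the first antenna copy, on chromosome 1 (top, from GRMZM2G414192) and chromosome 3 (bottom, from GRMZM2G120619). Filled diamonds are antenna rows and open circles other genes, in the control (blue, set slightly to the left) and the extract library (orange, slightly to the right). On chromosome 1 the copies 31.1 kb apart exchange levels, on chromosome 3 all orange diamonds are near 0, and most circles lie close to their pair.

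CAB1 and cab48 belong to a set of 7 rows with the family code SF20. The other 2 of them outside chromosome 3 are GRMZM2G155216, with the RefSeq synonyms lhcb3 and cab-m9, and GRMZM2G351977, with the synonym cab-m1. GRMZM2G155216 had 435 FPKM in the control library and 182 in the extract library (log2 ratio -1.25). Whether its protein is of the Lhcb3 type was not checked. GRMZM2G351977 had 292 and 32.6 FPKM (-3.12). Of the 6 rows at 1 FPKM or more, 5 were lower by at least 1 on the log2 scale and CAB1 was the exception. Over all genes tested 2.52% were lower, and 21.6% of those at 100 FPKM or more in the control. The set holds 2 of the rows chosen for their values.

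CAB1 therefore made up more of this set in the extract library. The 7 rows summed to 2297 FPKM in the control library and 1634 in the extract library (log2 ratio -0.49), of which CAB1 was 66.6% and 86.8%. The 6 rows without CAB1 summed to 767 and 215 FPKM (-1.83). The family code SF8 of the chromosome 1 copies has 1 further row, GRMZM2G105518 on chromosome 5, with 0.285 FPKM in the control library and 0 in the extract library.

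For the minor antenna, Lhcb4 can be set beside the genes of its partner proteins, which were named after their values were seen. A further row with the RefSeq synonym lhcb4, GRMZM2G103101, had 116 FPKM in the control library and 63.6 in the extract library (log2 ratio -0.86). Its family code is SF23, where Lhcb4 has SF6, and whether it is a CP29 gene was not checked. The CP26 gene GRMZM2G149428 (lhcb5) had 245 and 102 FPKM (-1.26). The CP24 gene GRMZM2G092427 (lhcb6) had 167 and 28.5 FPKM (-2.51), close to the -2.47 of Lhcb4. Other rows with its family code (SF2) were further from Lhcb4. GRMZM2G039996 had 65.7 FPKM in the control library and 24.8 in the extract library (-1.37). AC194734.3_FG004 had 4.87 and 1.49 FPKM (-1.24). Whether these SF2 rows are CP24 genes was not checked. All of the rows set beside Lhcb4 here had less in the extract library, by different amounts.

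Over the other chlorophyll a/b binding protein rows, which serve both photosystems, lower values in the extract library were common. Of 25 such rows 21 reached 1 FPKM in either library, and 15 of these were lower by at least 1 and 1 was higher. Their median log2 ratio was -1.37, against 0.22 over all genes tested. Abundant genes were more often lower in general, with 55 of 255 genes (21.6%) at 100 FPKM or more in the control lower by at least 1. This list overlaps one already described for these libraries and adds no independent support.

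The 5 other rows with the highest mean over both libraries all had less FPKM with the extract. GRMZM2G402936, with the synonyms lhcb7 and Cab-m7, had 1042 and 558 FPKM. GRMZM2G010884, annotated as a photosystem I type III protein, had 847 and 493 FPKM. GRMZM2G092311 (chlorophyll a-b binding protein 6) had 730 and 277 FPKM, GRMZM2G155216 is given above, and GRMZM2G057281, which starts 293 kb from Lhcb4 on chromosome 7, had 344 and 153 FPKM. The row that was higher was GRMZM2G136960, annotated only with the antenna domain, at 79.0 and 196 FPKM (log2 ratio 1.30), which in the extract library lay above GRMZM2G155216 and GRMZM2G057281. CAB1 was the only row above 100 FPKM in the control whose log2 ratio lay between -0.5 and 0.5.

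**Figure D4:**
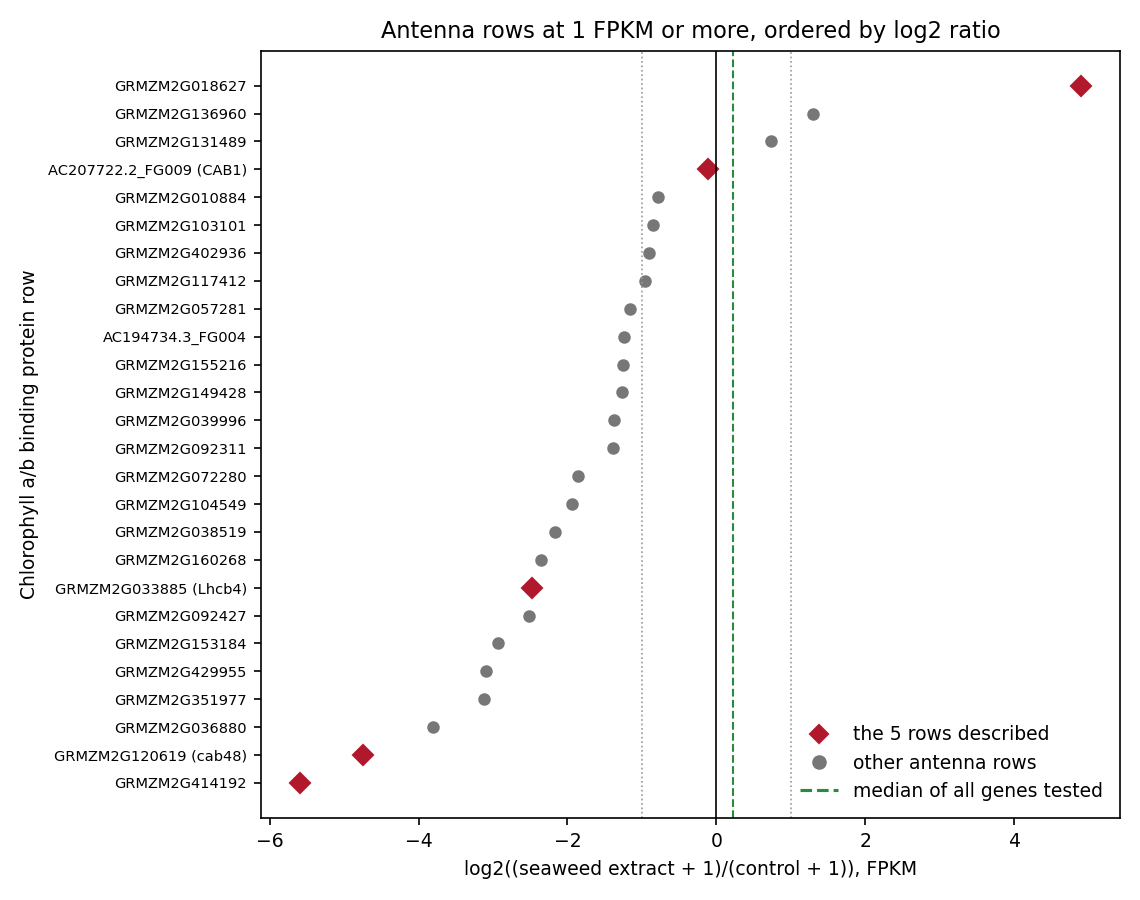
Log2 ratio (x axis) of the 26 chlorophyll a/b binding protein rows that reached 1 FPKM in either library, ordered from the lowest (bottom), with the 5 rows described as red diamonds and the others as grey circles. Dotted lines mark -1 and 1 and the green dashed line the median of all genes tested, 0.22. The diamonds take the 2 lowest places and the highest, while CAB1 lies just left of 0.

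Genes that handle antenna proteins after synthesis had log2 ratios near 0. A list of membrane insertion genes took in ALBINO3 and ALBINO3-like genes, which act in the thylakoid, with 2 OXA1 genes of the mitochondrial type and a general Srp54 gene. Of its 7 genes tested none was lower or higher by at least 1, where 2.52% and 3.71% of all genes were, and the median log2 ratio was 0.16, or -0.06 after centring. The ALBINO3 genes GRMZM2G110063 and GRMZM5G839422, whose protein inserts antenna proteins, had 32.4 and 34.5 FPKM in the control library and 33.1 and 30.1 in the extract library. STN7 (GRMZM2G010349), the kinase that phosphorylates LHCII in state transitions, had 125 and 138 FPKM with overlapping intervals, and its log2 ratio of 0.14 turned to -0.13 after centring.

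For genes of antenna and chlorophyll b breakdown the values went both ways. Of 4 tested 1 was higher by at least 1 and none lower, against 3.71% and 2.52% of all genes, and the median log2 ratio was 0.54. The chlorophyll b reductase gene NYC1 (GRMZM2G170013) had 14.1 FPKM in the control library and 23.3 in the extract library, while the STAY-GREEN-like gene GRMZM2G138190 had 14.1 and 8.71 FPKM. The higher one, GRMZM2G091837, a STAY-GREEN 1 type gene with the synonym SGR2, had 1.16 and 9.62 FPKM, and was named after its values were seen.

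A list of photosystem II genes, whose complex the antenna feeds, held core and oxygen-evolving subunits and also PsbS, assembly and repair factors, and PSBP-domain and PSBQ-like genes. It was lower in 12 of 39 cases (19 after centring) and higher in none, with a median log2 ratio of -0.71. Over all genes 2.52% were lower (3.39% after centring), and 21.6% of those at 100 FPKM or more in the control. The most abundant were the psbK-type locus GRMZM2G015355, at 5329 and 2278 FPKM, and the CP43 locus GRMZM2G358180, at 3113 and 2683 FPKM. Both carry genes of the plastid genome, and the rows of the plastid chromosome itself are listed at 0, so the values of such loci are uncertain. A list of 16 transcription factor rows was matched on the names CCA1, PIF and GLK. The name GLK also covers other Myb-type genes, such as the APL-type genes GLK34 and GLK53, so the list is not one of antenna gene regulators alone. In it 1 gene was lower and none higher, against 2.52% and 3.71% of all genes, with a median log2 ratio of 0.07. Centring gave 3 lower rows and a median of -0.17. The lower one was glk1 (GRMZM2G026833), of a family of activators of antenna genes, at 39.4 and 15.7 FPKM. GRMZM2G087804, described as related to the activator GLK1 and named after its values were seen, had 8.94 and 7.82 FPKM. Its log2 ratio was -0.17, and its intervals overlapped. The clock genes GRMZM2G014902 and GRMZM2G474769, related to CCA1, a factor that binds antenna gene promoters in Arabidopsis, had 91.5 and 93.1 FPKM and 83.8 and 46.9 FPKM. GRMZM2G474769 and the CCA1-related row GRMZM2G175265 (74.8 and 40.9 FPKM) were the other rows that were lower after centring. RefSeq lists these rows under the same gene, so they are not separate genes in that count.

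In the authors' deposited table of lower genes, 2 of the 5 rows are listed. Lhcb4 has a log2 fold change of -2.76 in the authors' deposited table, with p = 0.01335 and q = 0.530. GRMZM2G414192 has -8.10 with p = 0.019 and q = 0.638 in the authors' deposited table, and neither row carries the significance flag. Such a test compares the 2 libraries and not the conditions. CAB1, GRMZM2G018627 and GRMZM2G120619 are in none of the 4 lists. Of all 30 antenna rows, 13 are in the authors' deposited table of lower genes, which takes in 1.59% of all rows, and none is in that of higher genes (0.959%). These shares are over all 39634 rows, those below 1 FPKM included, and not over the 16272 genes tested. The significance flag stands at 3 of the 30 in the authors' deposited table, GRMZM2G036880, GRMZM2G092427 and GRMZM2G351977, each with q = 0.00995. Over these 13 rows the authors' deposited table gives folds that differ by -0.33 to -0.27 on the log2 scale from the plain ratio of the library values, with a median of -0.30.

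The genes closest to each row were found by the distance in log2(FPKM + 1) over the 2 libraries, among annotated genes. For Lhcb4 they were the Rubisco small subunit gene GRMZM2G113033 (566 and 154 FPKM, distance 0.57) and GRMZM2G080107, a gene of photosystem I subunit N (690.5 and 237 FPKM, 0.71). For CAB1 they were bss1 (GRMZM2G168552, an ABA/WDS induced protein gene, 1516 and 1646 FPKM, 0.21) and GRMZM2G134325 (1428 and 1225 FPKM, 0.23). Nearest to GRMZM2G414192 were the arginine decarboxylase gene GRMZM2G374302 (37.9 and 0.399 FPKM, 0.66) and the chloroplast-type locus GRMZM2G354804 (79.8 and 0.950 FPKM, 0.74). Nearest to GRMZM2G018627 were the rps7 locus GRMZM5G880319 (0.148 and 28.0 FPKM, 0.21) and the cob locus GRMZM2G112030 (0.435 and 20.9 FPKM, 0.70). For GRMZM2G120619 they were AC193786.3_FG005 (24.8 and 0.0844 FPKM, 0.17) and the agglutinin-domain gene GRMZM2G134264 (24.1 and 0.190 FPKM, 0.25).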

How the data were processed

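Leaf RNA of 2 pooled libraries was measured by RNA sequencing. The submitters' processing notes name Cufflinks 2.2.1 and Cuffdiff for no stated step, and beside them Bowtie2 2.2.6, TopHat2 2.1.0, cutadapt 1.8.1 and Picard 1.115. The genome build and the order of these tools are not given in the sources used here. Deposited tables of single libraries hold FPKM with lower and upper bounds, per the file headers. The authors' deposited comparison tables hold log2 fold changes, p-values and q-values, per the file headers, and 8 of their FPKM columns were not used.

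FPKM values were used as deposited, with Python 3.11.15, pandas 2.3.3 and numpy 2.4.6. The log2 ratio used a pseudocount of 1 FPKM over 16272 genes that reached 1 FPKM in either library. The depth is unknown from FPKM, so an implied fragment number was read from each interval, as the square of 2 times the value over its distance to the upper bound. By this measure 1 fragment counted for 1.25 times the FPKM in the extract library that it did in the control, over 2066 genes under 5 fragments that were whole within 0.01 in both. Counting intervals of low values apply the exact Poisson formula at 95% to that number, and cover counting error only. The number need not be whole, so these intervals are approximate. With 1 library per group no test was run.

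The 5 rows and all gene lists were chosen with earlier results of these data known. Lists were patterns on symbols and descriptions, from which PIF1 helicases and NOL-5 genes were removed after matching. The genes named are the 5 rows, antenna rows within 1 Mb of one or sharing a reference gene, the 5 most abundant other antenna rows, the 2 most abundant genes of each list and the 2 closest genes of each row. Genes outside this rule are marked or, as the genes around the copies and the other SF20 and SF8 rows, were chosen after their values were seen. RefSeq synonyms (assembly Zm-B73-REFERENCE-NAM-5.0, names only) matched 21 of 30 antenna rows and 3 of the 5. The formula of the log2 ratio was tried on simulated data. Other pseudocounts, minimum levels and scalings were tried.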

Additional observations from a re-analysis of the deposited data

How the results depend on the processing

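The log2 ratios of the 5 rows and of their sums kept their direction under the pseudocounts and scalings tried, while minimum levels were varied only for counts of genes. Each rests on 1 pooled library per group, so that the intervals cover quantification of that library only. Centred on the median gene (a shift of -0.27 on the log2 scale), the log2 ratios were -2.74 for Lhcb4, -0.38 for CAB1, -1.11 for the chromosome 1 sum, which then passed -1, and -0.88 for the sum of the 5 rows. Scaled to the upper quartile they were -2.74, -0.38, -1.12 and -0.89. Scaled to the summed FPKM without the 10 highest genes of each library, CAB1 had -0.18 and the sum of the 5 rows -0.69. With a pseudocount of 0.1, GRMZM2G414192 had -7.35, GRMZM2G018627 7.17 and GRMZM2G120619 -7.21. The number of all genes lower by at least 1 was 242 with a minimum of 5 FPKM and 657 with a pseudocount of 0.1, and the number higher was 400 and 1361, and 332 after centring. Centring moved the split of 604 higher and 410 lower genes to 332 and 552. The small medians of gene lists changed sign on centring, from 0.16 to -0.06 for insertion genes and from 0.07 to -0.17 for the list of transcription factors, as did STN7, from 0.14 to -0.13. Photosystem II genes then had 19 of 39 lower in place of 12, and the transcription factor rows 3 of 16 in place of 1. Of the 21 other antenna rows 19 were lower after centring, 16 with a pseudocount of 0.1, and 13 with a minimum of 5 FPKM. CAB1 lies on another chromosome than the copies and shares no reference gene number with them, so a sum with it was not made. No paired analysis was possible because each group has 1 library. Depth limits the low values: those of the chromosome 1 copies and of GRMZM2G120619 rest on under 4 implied fragments.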

Other observations

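Exchange of levels between rows that cite the same reference gene was seen in few other places. Of 163 pairs of rows that share a reference gene number and have at least 1 value of 10 FPKM, 2 moved in opposite directions by at least 1 on the log2 scale. One is the chromosome 1 antenna pair, which was chosen with its values known, so its place in this count is no finding. The other is the pair of psbE loci, for a cytochrome b559 subunit of photosystem II, on chromosomes 3 and 10. The gene psbE belongs to the plastid genome, so the values of these loci are uncertain, as for the psbK-type and CP43 loci above. GRMZM2G062044 had 33.1 FPKM in the control library and a listed 0 with the extract, while GRMZM2G108467 had 10.8 and 130.1 FPKM. The sum of this pair had a log2 ratio of 1.54, against -0.86 for the antenna pair.

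Of these 163 pairs, 5 lie within 100 kb on 1 chromosome, as the antenna copies do. In the other 4 the copies did not exchange levels. The actin 7 type genes GRMZM2G104017 and GRMZM2G110378 had 19.8 and 13.1 FPKM in the control library and 24.0 and 19.6 in the extract library. The ubiquitin-conjugating enzyme genes GRMZM2G027378 and GRMZM2G071010 had 19.7 and 23.6 FPKM in the control library and 31.6 and 32.4 in the extract library. Of the inorganic pyrophosphatase-type genes, GRMZM2G137930 had 22.9 and 28.7 FPKM, and GRMZM2G062197 had 0.447 FPKM and a listed 0. Of the pentatricopeptide repeat genes, GRMZM2G345622 had 12.5 and 3.49 FPKM and GRMZM2G053384 0.118 and 0.171 FPKM. Why the antenna pair differed was not tested.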
